A study of Homo sapiens with 18 samples.

Results

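Collagen genes were described in U2OS, a human osteosarcoma cell line, as all protein-coding genes whose symbol is COL, a number, A and a number. The rule found 43 genes among the 25296 in the deposited table of counts, of which 16451 are protein-coding. By chain type, 11 code for fibrillar collagens, 6 for the type IV chains of basement membranes and 26 for other types. The last group holds fibril-associated, beaded-filament, transmembrane, short-chain, multiplexin and anchoring-fibril collagens.

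The study sequenced RNA of 3 lines derived from U2OS, in 18 libraries. The EV line carries the empty MigR1 vector, the WT line overexpresses wild-type DNMT3A, and the MUT line overexpresses mutant DNMT3A, an enzyme that methylates cytosines in DNA. The series text gives the substitution as R882C and the sample labels as R882H, so the line is called MUT here. Each line was sampled untreated, called vehicle in the series text, and after 24 h in 10 µM cytarabine, a cytidine analogue that stalls DNA replication. Every group had 3 biological replicates plated from 1 line per construct, so p-values measure the spread between these cultures and differences between lines rest on 1 line each. Whether the lines are pools or clones is not given in the sources used here.

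The libraries held 15391484 to 21850378 counts, of which collagens took 0.133% to 0.309%. DNMT3A stood at 26.2 to 27.5 CPM (counts scaled to the library total after TMM normalisation) in untreated EV cells, at 129.4 to 139.1 CPM in untreated WT cells and at 253.6 to 615 CPM in untreated MUT cells. These counts do not separate the alleles, so they check the overexpression and not the substitution. Replicate 3 of the untreated MUT group had the lowest DNMT3A value of that line, and the 3 libraries of that group differed more from each other than those of any other group. Their chi-square per degree of freedom over genes was 23.2 to 51.4, against 2.51 to 16.5 for the other groups. Of the osteoblast lineage genes, SPARC at 888 ± 17.7 CPM, RUNX2 at 45.8 ± 2.66 CPM and ALPL at 11.9 ± 2.09 CPM (SD, n = 3) were measured in untreated EV cells. SPP1 was at 0.711 ± 0.144 CPM and BGLAP at 0.259 ± 0.0993 CPM, so these late markers were close to absent.

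Collagens are secreted proteins built from 3 chains wound into a triple helix, and each gene codes for 1 chain. Fibrillar collagens assemble into the banded fibrils of bone, skin and tendon, type IV chains form the sheet-like network of basement membranes, and the other types decorate fibrils, link cells to matrix or span the cell membrane. Type I collagen, made from the COL1A1 and COL1A2 chains, is the main organic component of bone, the tissue from which osteosarcoma arises.

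Promoter sequences are shown because DNMT3A acts on CpG dinucleotides, which stand in capitals here, and because some collagen genes share a promoter. DNA methylation was not measured in these libraries. Of the 43 genes, 31 had an entry in RefSeq's promoter table (GRCh38.p14), and the 250 bases before the start were counted. The 12 without an entry include COL1A1, COL1A2, COL3A1, COL6A1, COL8A1 and COL22A1, so the CpG counts do not cover these genes. COL4A1 and COL4A2 start 126 bases apart and run in opposite directions, on chromosome 13. The stretch between their RefSeq starts, chr13:110307158-110307283 on the plus strand, holds 20 CpGs. The other 3 sequences are the 250 bases upstream of COL4A5 (chrX:108439588-108439837, plus strand, 8 CpGs), of COL17A1 (chr10:104085881-104086130, minus strand, 1 CpG) and of COL5A3 (chr19:10010505-10010754, minus strand, 10 CpGs). COL4A5 is a type IV chain that rose with cytarabine, COL17A1 the transmembrane collagen with the larger rise, and COL5A3 the fibrillar chain that fell.
COL4A1 and COL4A2: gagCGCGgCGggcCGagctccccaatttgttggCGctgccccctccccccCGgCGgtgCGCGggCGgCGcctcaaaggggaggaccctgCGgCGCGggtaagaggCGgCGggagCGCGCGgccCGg
COL4A5: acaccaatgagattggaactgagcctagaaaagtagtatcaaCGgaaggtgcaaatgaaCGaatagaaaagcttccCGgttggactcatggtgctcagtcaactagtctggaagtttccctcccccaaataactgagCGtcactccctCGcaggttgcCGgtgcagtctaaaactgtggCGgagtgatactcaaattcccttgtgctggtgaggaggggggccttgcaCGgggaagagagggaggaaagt
COL17A1: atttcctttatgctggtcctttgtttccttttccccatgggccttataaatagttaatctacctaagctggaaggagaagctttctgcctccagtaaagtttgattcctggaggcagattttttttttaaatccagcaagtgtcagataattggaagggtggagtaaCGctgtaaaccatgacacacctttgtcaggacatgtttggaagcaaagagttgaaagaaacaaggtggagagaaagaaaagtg
COL5A3: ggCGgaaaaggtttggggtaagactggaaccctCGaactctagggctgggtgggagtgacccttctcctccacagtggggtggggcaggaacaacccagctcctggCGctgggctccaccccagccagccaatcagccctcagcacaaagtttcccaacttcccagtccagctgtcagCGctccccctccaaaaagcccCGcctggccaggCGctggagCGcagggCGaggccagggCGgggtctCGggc

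The collagen windows held a median of 16 CpGs, against 11 in all 35116 promoters of the table (quartiles 3 and 23). They ranged from 1 CpG, in COL17A1, COL10A1 and COL28A1, to 40 in COL4A2. A GC box (GGGCGG) was present on either strand in 18 of 31 collagen promoters and 42.6% of all promoters. A TATA box (TATAAA) was present in 5 of 31 against 10.7%, a CCAAT box (CCAAT) in 8 of 31 against 32%, and the letters TGANTCA, an AP-1 site, in 0 of 31 against 6.6%. No searched motif contains another. The other type IV genes are also paired head to head, with 418 bases between the starts of COL4A4 and COL4A3 on chromosome 2 and 379 between those of COL4A6 and COL4A5 on chromosome X. The deposited extents of COL4A1 and COL4A2 overlap by 1423 bases on opposite strands. The strand setting of the authors' counting is not given in the sources used here, so reads in that overlap cannot be assigned with certainty.

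COL4A1, COL4A2, COL6A1, COL6A2, COL1A1 and COL12A1 had the highest levels, and most remaining collagens were low. Levels between genes are given as CPM per kilobase of union exon length. Averaged over the 18 libraries, treated and untreated, COL4A2 had the highest level, 32.1 CPM per kb, followed by COL6A2 (28.1), COL1A1 (18.2), COL6A1 (17.4), COL4A1 (15.7) and COL12A1 (15.4). COL6A1 and COL6A2 code for chains of the beaded filaments around cells, and COL12A1 for a fibril-associated chain. Further down were COL5A1 (8.39 CPM per kb), which helps to start fibrils, COL17A1 (7.24), the transmembrane collagen of hemidesmosomes, COL16A1 (4.73), COL6A3 (4.5) and COL11A1 (3.69). Over the libraries, the ranges of all neighbours among these 6 overlapped, the first pair at 25.3 to 47.3 and 20.8 to 40.1 CPM per kb, so the order is not a separation. It also differed between groups: COL6A2 (32.4) was above COL4A2 (31.4) in treated EV cells, and COL1A1 came next after both in untreated EV cells, at 19.6, but was at 7.04 in untreated WT cells, below COL6A1, COL4A1 and COL12A1. With the canonical transcript length in place of the union of exons, COL4A2 was still first (96 CPM per kb), ahead of COL6A2 (43.5) and COL4A1 (35.2). At the other end, 11 members had so few counts that they were not tested, with at most 11 counts in any library and at least 1 library at 0 in each. These were the cartilage chain COL2A1 and, among the other types, COL10A1, COL14A1, COL19A1, COL20A1, COL21A1, COL23A1, COL25A1, COL28A1, COL6A5 and COL6A6.

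**Figure D1:**
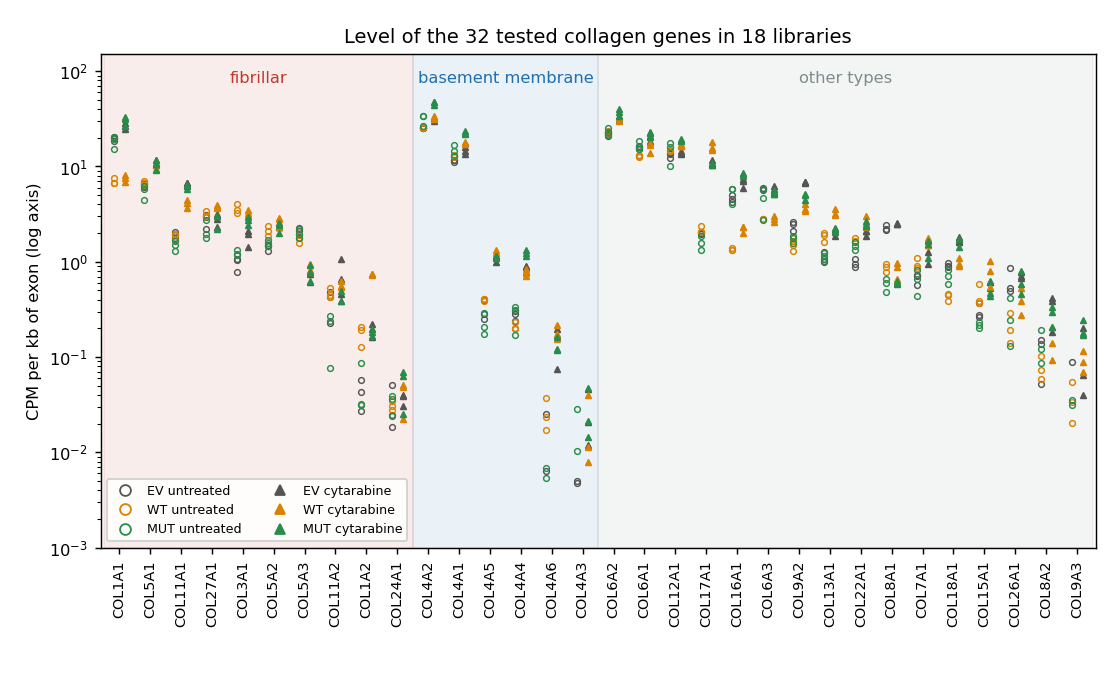
Level of the 32 tested collagen genes in CPM per kb of exon on a log axis, ordered within each class by the mean over 18 libraries. Open circles are untreated and filled triangles cytarabine-treated libraries, coloured by line, and values of 0 are not drawn. COL4A2, COL6A2, COL1A1 and COL6A1 lie at the top of their classes, and most triangles lie above the circles of the same gene.

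The summed collagen level was higher in every treated library than in any untreated library of the same line. In EV cells it was 143, 146 and 150 CPM per kb untreated and 213, 201 and 216 with cytarabine. In WT cells it was 131, 133 and 130 untreated and 190, 181 and 187 with cytarabine, and in MUT cells 166, 154 and 135 untreated and 251, 232 and 252 with cytarabine. The ratio of the treated to the untreated mean was 1.44 in EV, 1.42 in WT and 1.62 in MUT cells. No test was made of these sums, in which the abundant genes weigh most.

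With the union exon length, the other types took the largest share of the summed level in all groups. In untreated EV cells the fibrillar class took 24.4% ± 0.71 of the summed level, the basement membrane class 25.7% ± 0.601 and the other types 49.9% ± 0.196 (SD, n = 3). In untreated WT cells the fibrillar share was 20.5% ± 1.24 and the basement membrane share 30.0% ± 0.687. In untreated MUT cells they were 21.5% ± 0.644 and 30.7% ± 1.12. The fibrillar share was smaller, and the basement membrane share larger, in every library of both DNMT3A lines than in every EV library. These are shares: the summed fibrillar level of untreated MUT libraries (36.4, 33.6 and 27.9 CPM per kb) overlapped that of untreated EV libraries (33.6, 36.1 and 37.2). COL1A1 alone made up 55.1% ± 0.302 of the fibrillar level in untreated EV cells and 56.3% ± 1.09 in MUT cells, but 26.1% ± 0.731 in WT cells. COL4A1 and COL4A2 made up 98.4% of the basement membrane class in untreated EV and WT cells and 98.9% in MUT cells. The basement membrane share depends on the length used, since these 2 genes have long unions of exons. Over all libraries it was 27.8% with the union, 40.7% with the canonical transcript and 42% without length scaling. The other types took 50.1%, 42.3% and 39.9% in these settings, so which class was largest also depends on the length.

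**Figure D2:**
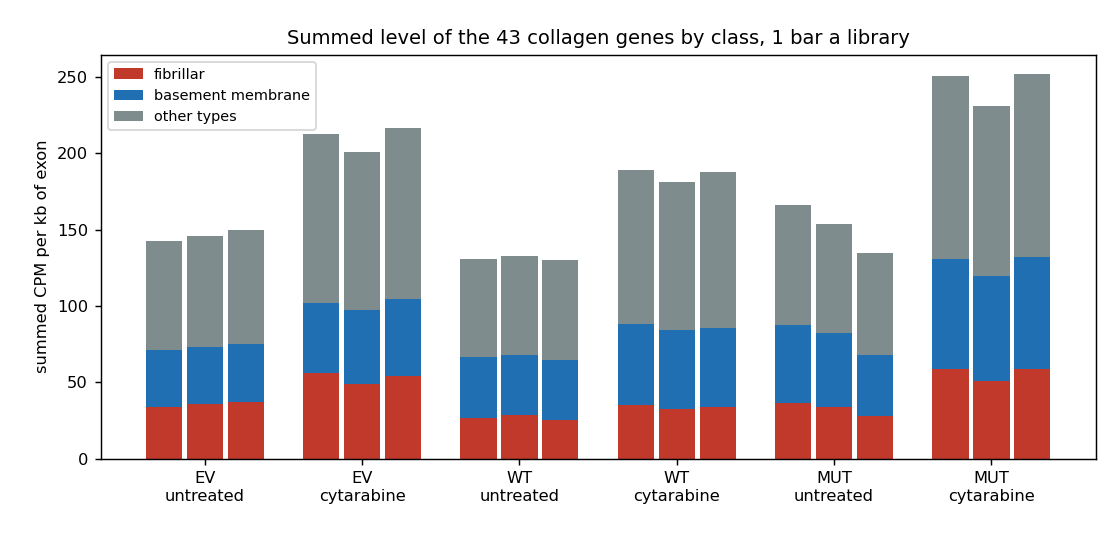
Summed level of the 43 collagen genes in CPM per kb of exon, 1 bar a library, stacked by class. The treated bars of each line stand above its untreated bars, from 143 to 150 up to 201 to 216 in EV cells. The red fibrillar part is smallest on average in the WT line at each treatment, though untreated MUT replicate 3 (27.9) is below untreated WT replicate 2 (28.9).

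Partner chains differed in amount, most of all those of type I collagen. Type I collagen is mostly assembled from both COL1A1 (chr17:50183289-50201633) and COL1A2 (chr7:94394561-94431233) chains. Per length, the ratio of COL1A1 to COL1A2 was 689, 457 and 360 in the untreated EV libraries, 32.4, 59.8 and 34.9 in the untreated WT libraries and 631, 221 and 486 in the untreated MUT libraries. The WT values thus lay below all others in untreated cells. COL1A2 had only 5, 8 and 10 counts in the untreated EV and 7, 15 and 6 in the untreated MUT libraries, so these ratios are imprecise. With cytarabine the ratio was 144, 153 and 120 in EV, 10.2, 9.28 and 11.2 in WT and 196, 135 and 170 in MUT cells. These values were below the untreated values of the same line in every library. The ratio of COL4A2 to COL4A1, which join in 1 helix, stayed between a mean of 1.84 ± 0.0622 (treated WT) and 2.19 ± 0.062 (untreated EV). The mean ratio of COL5A1 to COL5A2 ran from 3.19 to 4.63 and that of COL6A1 to COL6A2 from 0.515 to 0.735. The last was lower with cytarabine than without in every EV and MUT library, while the WT libraries overlapped.

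Most collagen genes that could be tested rose with cytarabine, in all 3 lines. With edgeR's quasi-likelihood test on 18226 genes, 23 of the 32 tested collagens rose and 1 fell in EV cells at an adjusted p under 0.05, 20 rose and 1 fell in WT cells, and 26 rose and 1 fell in MUT cells. Of all genes, 26.1% rose in EV, 26.3% in WT and 30.4% in MUT cells, and 22.9%, 22.7% and 25.9% fell. The median log2 fold change of the collagens was 0.90 in EV, 0.68 in WT and 0.96 in MUT cells, beside 0.05, 0.03 and 0.05 for all genes. A rise of at least 1 on the log2 scale was called for 9, 9 and 15 collagens, beside 10.8%, 10.5% and 12.6% of all genes. Among the 13 collagens with a mean log2 CPM of 4 or more, 10 rose in EV, 9 in WT and 11 in MUT cells, and among the 19 lower ones 13, 11 and 15. Of all genes at or above that level, 20.7%, 22.5% and 25.5% rose, and of those below it 31.5%, 30.0% and 35.3%. CPM is a share of the library, so a fold change is relative to the other RNA. In bulk RNA more cells making a collagen and more RNA per cell cannot be told apart.

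By gene, 19 collagens rose in all 3 lines, namely 4 fibrillar, 5 basement membrane and 10 other chains, and COL5A3 fell in all 3. Another 8 rose in 1 or 2 lines. COL24A1, COL27A1, COL6A3 and COL8A1 passed the threshold in none. COL27A1 passed it in WT cells when the 2 groups were fitted alone (0.28, edgeR adjusted p = 0.000271). COL27A1 and COL6A3 also passed it in some fits that left out 1 MUT library: COL27A1 had a log2 change of 0.55 without untreated MUT replicate 1 and of 0.48 without treated MUT replicate 1, and COL6A3 of 0.48 without untreated MUT replicate 2. Without untreated MUT replicate 3, the library with the lowest DNMT3A value of its line, 24 collagens rose and 1 fell in MUT cells.

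**Figure D3:**
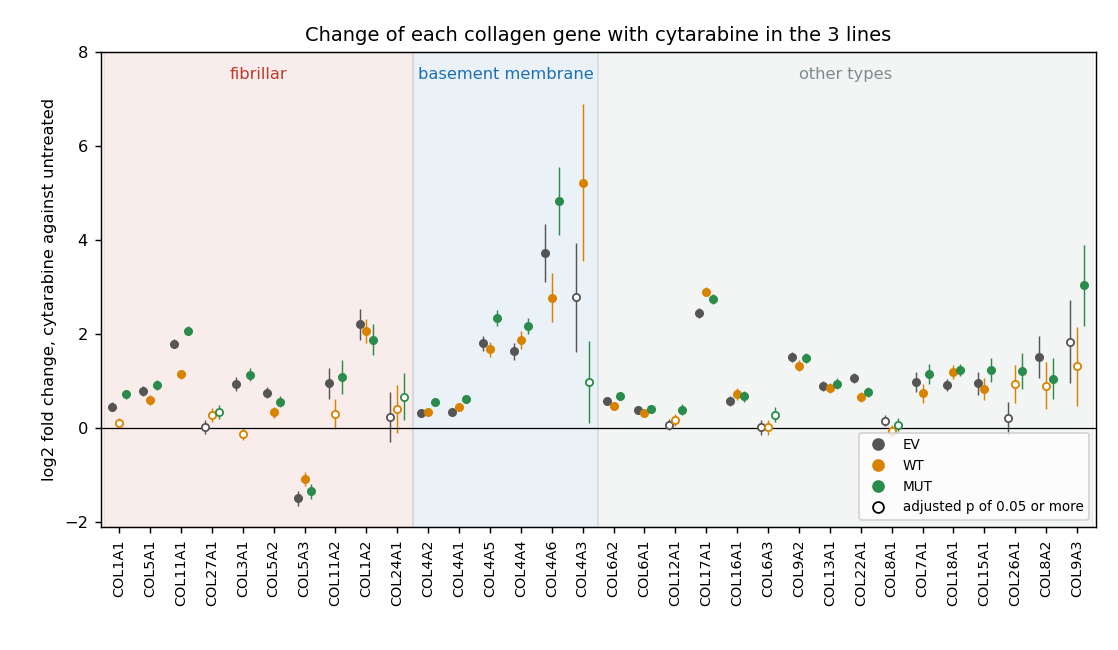
Log2 fold change of cytarabine-treated against untreated cells for the 32 tested collagens in the EV, WT and MUT lines, with bars of 1 standard error. Filled points passed an adjusted p of 0.05. Most points lie above 0 in all classes, and COL5A3 is below 0 in the 3 lines; the high values of COL4A3, COL4A6 and COL9A3 rest on groups with hardly any counts.

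All 6 type IV genes rose in WT cells, and 5 of 6 in EV and in MUT cells. The abundant pair COL4A1 and COL4A2 moved little and the scarce chains more. COL4A2 (chr13:110305812-110513210) stood at 487, 487 and 491 CPM in untreated EV cells and at 574, 618 and 622 CPM with cytarabine. It stood at 500, 490 and 500 CPM against 647, 614 and 620 CPM in WT cells, and at 650, 651 and 513 CPM against 910, 855 and 912 CPM in MUT cells. Treated and untreated libraries did not overlap within any line, although 2 untreated MUT libraries lay above every treated EV and WT library. The log2 changes were 0.31 (SE 0.0749, edgeR adjusted p = 0.002) in EV, 0.34 in WT and 0.56 in MUT cells, and those of COL4A1 were 0.34, 0.44 and 0.62. COL4A1 (chr13:110148963-110307234) had 164 to 173 CPM in untreated and 199 to 234 CPM in treated EV libraries. In MUT cells it had 187 to 245 CPM untreated and 322 to 347 CPM with cytarabine.

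COL4A5 and COL4A4 code for chains that join COL4A3 in the filter membrane of the kidney. COL4A5 (chrX:108439844-108697546) had 2.98, 4.73 and 3.32 CPM in untreated and 13.7, 11.7 and 13.1 CPM in treated EV cells. The WT libraries had 4.56, 4.81 and 4.84 CPM untreated and 15.7, 14.8 and 14.7 CPM treated, and the MUT libraries 2.06, 3.46 and 2.46 CPM untreated and 13.6, 13.5 and 12.9 CPM treated. All treated libraries thus lay above all untreated ones, whatever the line. The log2 changes were 1.80 (SE 0.16, edgeR adjusted p = 3.16e-08), 1.67 and 2.34 in EV, WT and MUT cells. COL4A4 changed by 1.63, 1.87 and 2.17, with treated values of 8.46 to 15.8 CPM and untreated values of 2.00 to 4.01 CPM over the 3 lines.

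COL4A6 and COL4A3 had too few counts for an exact fold. COL4A6 had at most 0.343 CPM in any untreated library and 0.687 to 2.03 CPM in the treated ones. In MUT cells it had 1, 1 and 0 counts untreated and 34, 23 and 26 with cytarabine, which is at least 7.3-fold higher when the untreated mean is set to 3 counts per library. COL4A3 rose in WT cells (edgeR adjusted p = 0.0151), from 0, 0 and 0 counts to 3, 9 and 2, or at least 1.53-fold. Without treated WT replicate 2 its adjusted p was 0.0711. COL4A3 also passed in EV cells in fits without treated EV replicate 1 (adjusted p = 0.0431), untreated MUT replicate 1 (0.0488) or untreated MUT replicate 3 (0.0364). The median log2 change of the 6 type IV genes was 1.72 in EV, 1.77 in WT and 1.57 in MUT cells, and with such genes at their bound 1.24 in EV and 1.14 in WT cells.

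**Figure D4:**
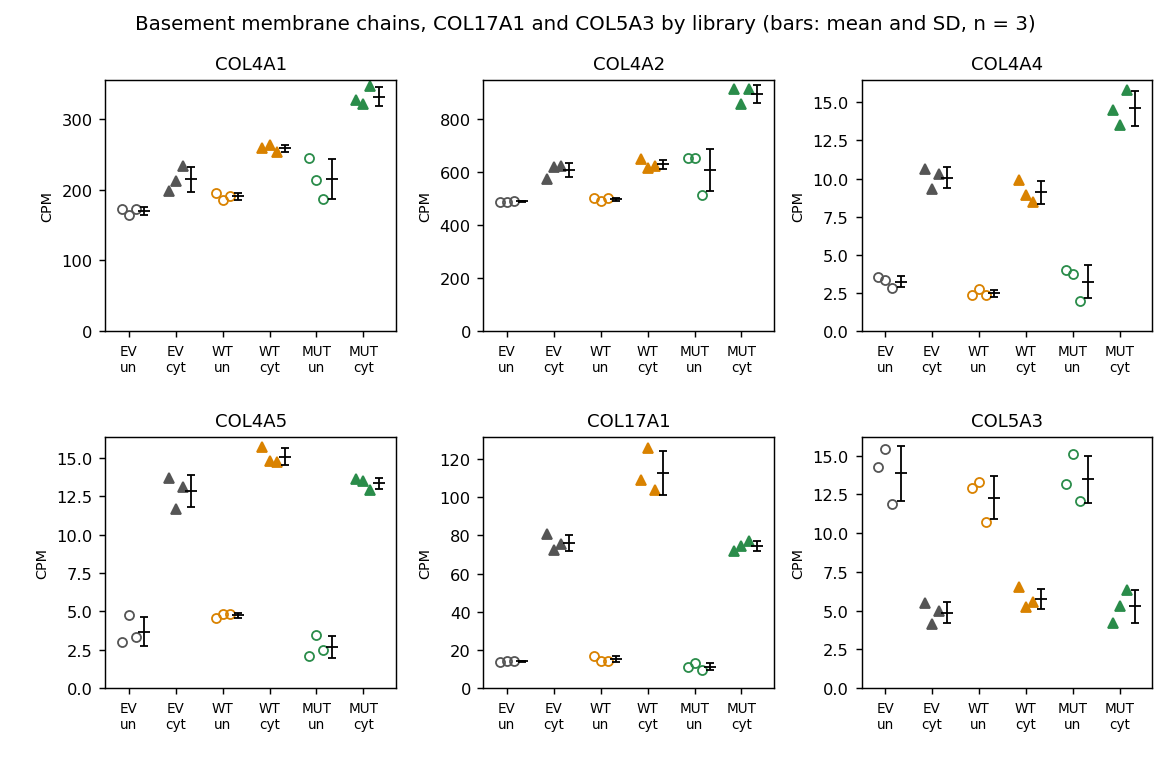
CPM of COL4A1, COL4A2, COL4A4, COL4A5, COL17A1 and COL5A3 in each of the 18 libraries, with the mean and SD of each group of 3 as black bars and each axis from 0 (un, untreated; cyt, cytarabine). COL17A1 goes from 9.19 to 16.8 CPM untreated to 71.8 to 126 CPM treated, COL5A3 runs the other way, and COL4A1 and COL4A2 shift by less than their own untreated level.

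Fibrillar genes rose less evenly. Of 10 tested, 7 rose and 1 fell in EV and in MUT cells and 4 rose and 1 fell in WT cells, with median log2 changes of 0.77, 0.82 and 0.31. COL11A1 (chr1:102876467-103108873), which codes for a chain of cartilage fibrils, had 17.2, 16.1 and 18.8 CPM in untreated EV cells and 61.5, 57.4 and 60.9 CPM with cytarabine. In WT cells it went from 17.9, 17.5 and 15.3 CPM to 40.2, 33.3 and 38.0 CPM, and in MUT cells from 14.9, 13.6 and 11.8 CPM to 58.1, 53.0 and 58.1 CPM. The treated WT libraries were lower than every treated library of the other lines, while the untreated values of the 3 lines ran from 11.8 to 18.8 CPM. The log2 changes were 1.79 (SE 0.0943, edgeR adjusted p = 8.38e-11), 1.14 and 2.07.

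COL1A2, the second chain of type I collagen, was scarce, at 0.292, 0.467 and 0.615 CPM in untreated and 2.15, 1.75 and 2.39 CPM in treated EV cells. The WT libraries had 2.26, 1.38 and 2.09 CPM untreated and 7.98, 8.11 and 7.83 CPM treated, and the MUT libraries 0.351, 0.943 and 0.343 CPM untreated and 1.80, 2.11 and 2.00 CPM treated. The untreated WT values thus overlapped the treated values of the other lines. Log2 changes were 2.20 (SE 0.335, edgeR adjusted p = 2.2e-05) in EV, 2.06 in WT and 1.88 in MUT cells. COL1A1, the partner chain, had 168, 178 and 184 CPM in untreated and 258, 223 and 240 CPM in treated EV cells, a log2 change of 0.45 (SE 0.1). In MUT cells it rose by 0.71, and in WT cells its treated values, 67.9, 62.6 and 72.9 CPM, overlapped the untreated ones, 61.0, 68.5 and 60.8 CPM.

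COL3A1, the chain of the thin fibrils of soft tissues, rose by a log2 change of 0.93 in EV and 1.13 in MUT cells. It had 7.13, 5.32 and 7.26 CPM in untreated and 14.2, 9.74 and 13.3 CPM in treated EV cells, and 8.93, 7.99 and 8.11 CPM against 18.7, 16.5 and 19.8 CPM in MUT cells. In WT cells its treated values of 22, 23.5 and 21.0 CPM overlapped the untreated ones of 23.4, 27.3 and 22.1 CPM. COL5A1, the main type V chain, rose by 0.78, 0.59 and 0.92 in EV, WT and MUT cells. COL5A2, its partner and the neighbour of COL3A1 on chromosome 2, rose by 0.75, 0.33 and 0.56, but its WT call was lost without untreated WT replicate 1 (adjusted p = 0.0564) or 3 (0.117) and without treated WT replicate 1 (0.104) or 2 (0.0723). COL11A2, the partner of COL11A1, rose by 0.95 in EV and 1.08 in MUT cells. That call was lost in EV cells without untreated replicate 1 (0.122) or treated replicate 1 (0.179), and in MUT cells without untreated replicate 2 (0.0866) or treated replicate 3 (0.0544).

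COL5A3 (chr19:9959561-10010472), another type V chain, fell in every line. In EV cells it went from 14.3, 15.4 and 11.9 CPM to 5.48, 4.12 and 5.0 CPM. In WT cells it went from 12.9, 13.3 and 10.7 CPM to 6.49, 5.24 and 5.56 CPM, and in MUT cells from 13.2, 15.1 and 12.1 CPM to 4.22, 5.27 and 6.32 CPM. No treated library reached the lowest untreated value of any line. As log2 changes, COL5A3 fell by 1.5 (SE 0.16, edgeR adjusted p = 2.96e-07) in EV, by 1.09 in WT and by 1.35 in MUT cells. A fall of at least 1 was called for 1.31%, 2.12% and 3.69% of all genes.

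Among the other types, 11 of 16 tested genes rose in EV cells, 10 in WT cells and 14 in MUT cells, and none fell in edgeR or DESeq2, or at an unadjusted p under 0.05, in these 3 comparisons. COL17A1 (chr10:104031286-104085958) had the largest rise of the collagens above 1 CPM on average, from 13.6, 14.3 and 14.0 CPM to 80.8, 72.5 and 75.3 CPM in EV cells. The WT libraries went from 16.8, 14.2 and 14.3 CPM to 109, 126 and 104 CPM and the MUT libraries from 11.1, 13.0 and 9.19 CPM to 71.8, 74.3 and 77.0 CPM. No treated and untreated values came near each other, and the treated WT libraries were above all others. Its log2 changes were 2.45 (SE 0.102, edgeR adjusted p = 6.41e-12), 2.90 and 2.75. COL17A1 is best known from epithelial cells, where it anchors the cell to the basement membrane. The 5 epithelial marker genes summed to 5.78 to 6.78 CPM in untreated and 9.44 to 11.3 CPM in treated EV libraries, to 3.02 to 3.92 against 4.65 to 6.19 CPM in WT and to 5.41 to 6.97 against 7.66 to 12.7 CPM in MUT libraries. The epithelial splicing factor ESRP1 had at most 3 counts in each untreated library. The part of these markers in the rise of COL17A1 was not tested.

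COL9A2, a fibril-associated chain of cartilage, had log2 changes of 1.51 (SE 0.109, edgeR adjusted p = 2.68e-09), 1.32 and 1.49. It had 11, 8.82 and 10.6 CPM in untreated and 29.2, 28.3 and 29.0 CPM in treated EV cells. The untreated values in WT cells, 5.44, 7.04 and 6.27 CPM, and in MUT cells, 6.67, 7.80 and 7.54 CPM, were lower, as were the treated ones, 14.5 to 17.1 CPM and 18.9 to 21.6 CPM. COL22A1, found at tissue junctions, rose by 1.06, 0.65 and 0.76, and the multiplexin COL18A1, whose cleavage gives endostatin, by 0.91, 1.19 and 1.23. The transmembrane COL13A1 rose by 0.89, 0.85 and 0.94, COL7A1 of the anchoring fibrils by 0.97, 0.74 and 1.15, and the fibril-associated COL16A1 by 0.57, 0.71 and 0.67.

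The beaded-filament pair changed less. COL6A2 (chr21:46098097-46132850) had 111, 117 and 119 CPM in untreated and 179, 162 and 177 CPM in treated EV cells, and rose by 0.58, 0.46 and 0.68 in EV, WT and MUT cells. COL6A1 rose by 0.38, 0.32 and 0.40. COL6A3, which joins both in the type VI filament, did not pass the threshold in any line, with 121, 127 and 126 CPM untreated and 117, 135 and 124 CPM treated in EV cells. COL12A1 passed the threshold in MUT cells (0.39, edgeR adjusted p = 0.012), where untreated replicate 3 had 189 CPM against 332 and 299 CPM in the others. In a fit of the 2 groups alone its adjusted p was 0.116. In WT cells it passed with a log2 change of 0.18 when those 2 groups were fitted alone (adjusted p = 0.000211), and of 0.17 when untreated MUT replicate 3 was left out of the fit.

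COL15A1, another multiplexin, rose by 0.95, 0.82 and 1.23, though its adjusted p was 0.0606 in WT cells without treated replicate 2. COL8A2, a short-chain network collagen, rose in EV cells (1.51) and in MUT cells (1.05, edgeR adjusted p = 0.0497). The EV call was lost without untreated EV replicate 3 (0.0529). The MUT call was lost in 11 of 18 leave-one-out fits, where the adjusted p reached 0.174 without untreated MUT replicate 3, and also with DESeq2 (0.0838). COL26A1 rose in MUT cells (1.21, edgeR adjusted p = 0.0108), but not without untreated replicate 3 (0.0629) or treated replicate 1 (0.0591). That call was also lost when the 2 groups were fitted alone (0.0512). In WT cells its change of 0.94 did not pass with all libraries. It passed there when the 2 groups were fitted alone (0.0328) and in some fits that left out 1 library. COL9A3, a partner of COL9A2, rose in MUT cells from 3, 0 and 3 counts to 19, 18 and 27, at least 5.63-fold.

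Wild-type DNMT3A went with large differences in a few collagens before any drug was given. Of the 32 collagens, 5 were higher and 8 lower in untreated WT than in untreated EV cells, where 4.30% of all genes were higher and 7.36% lower. Of these 13, 8 differed by at least 1 on the log2 scale, 2 higher and 6 lower, beside 0.691% and 1.88% of all genes. COL16A1 had 39.4, 42.1 and 46.2 CPM in EV cells and 13.0, 12.2 and 12.3 CPM in WT cells, a log2 difference of -1.77 (SE 0.125, edgeR adjusted p = 9.92e-09). COL1A1 had the 168 to 184 CPM given above in EV cells against 60.8 to 68.5 CPM in WT cells, a log2 difference of -1.48 (SE 0.104). The chains of the same fibril went apart: COL1A2 was higher by 2.05 (SE 0.339) and COL3A1 by 1.88 (SE 0.142).

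COL8A1 (chr3:99638475-99799227), a chain of the hexagonal networks beneath endothelia, had 20.6, 20.2 and 23.2 CPM in EV cells and 8.93, 8.25 and 7.42 CPM in WT cells. The log2 difference was -1.38 (SE 0.126, edgeR adjusted p = 3.9e-07). COL18A1 differed by -1.07, COL6A3 by -1.05 and COL9A2 by -0.70. COL6A3 had 121 to 127 CPM in EV and 59.8 to 61.2 CPM in WT cells. COL22A1, COL13A1 and COL5A2 were higher by 0.79, 0.71 and 0.57. COL26A1 (-1.59) lost the call without untreated EV replicate 1 (0.0753) or untreated WT replicate 3 (0.0622). COL6A1 (-0.30) lost it without any of the 6 untreated EV and WT libraries (adjusted p 0.0696 to 0.12). None of the 6 type IV genes passed the threshold in this comparison (1 had an unadjusted p under 0.05), and none passed in DESeq2, though COL4A1 did in edgeR with a log2 difference of 0.17 when the 2 groups were fitted alone, and COL4A5 with 0.59 without untreated EV replicate 2.

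Between untreated MUT and EV cells, 3 of the 32 collagens were higher and 5 lower, near the 9.88% and 10.0% of all genes. Fewer collagens passed here than between WT and EV cells, while of all genes more did (there 4.30% higher and 7.36% lower). The untreated MUT libraries also differed more from each other than those of any other group. The MUT comparison shares its EV libraries with the WT comparison, so the values are set side by side without a test of their likeness. COL8A1 was lower here too, with 5.57, 6.16 and 4.57 CPM in untreated MUT cells and a log2 difference of -1.97 (SE 0.132, edgeR adjusted p = 1.51e-08). COL9A2 differed by -0.47, and COL22A1 was higher by 0.61, with 6.95 to 8.47 CPM in EV and 10.5 to 12.7 CPM in MUT cells. COL4A1 and COL4A2 were higher by 0.34 and 0.31. The type I and III chains had MUT values near those of EV cells, at 184, 173 and 139 CPM for COL1A1 and 8.93, 7.99 and 8.11 CPM for COL3A1, and did not pass the threshold. When the 2 groups were fitted alone, 2 collagens passed, COL8A1 and COL22A1, and the adjusted p of COL4A1, COL4A2 and COL9A2 was 0.112, 0.143 and 0.0933. Calls for COL11A1, COL17A1 and COL26A1 were lost in fits without untreated MUT replicate 3 (adjusted p 0.0884, 0.237 and 0.112) and in others. Without that library 4 collagens were higher and 2 lower, and COL12A1 was among the higher (0.35).

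Between the DNMT3A lines, 6 collagens were higher and 11 lower in untreated MUT than WT cells, beside 11.7% and 9.54% of all genes. COL16A1 was higher by 1.94 (SE 0.124, edgeR adjusted p = 2.43e-09) and COL1A1 by 1.38, while COL1A2 and COL3A1 differed by -1.83 and -1.54. In untreated MUT cells COL16A1 had 53.6, 37.1 and 53.2 CPM, all above the 12.2 to 13.0 CPM of WT cells. With the 2 groups fitted alone 5 collagens passed, the 4 just named and COL13A1 (-0.69 with all groups). In fits that left out 1 library at a time, 11 of the 17 were called every time. COL12A1 was not among the 17, with untreated means of 274 CPM in MUT and 279 CPM in WT cells. Without untreated MUT replicate 3 its direction changed, and it was called higher in MUT cells by 0.21 (edgeR adjusted p = 0.0184).

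**Figure D5:**
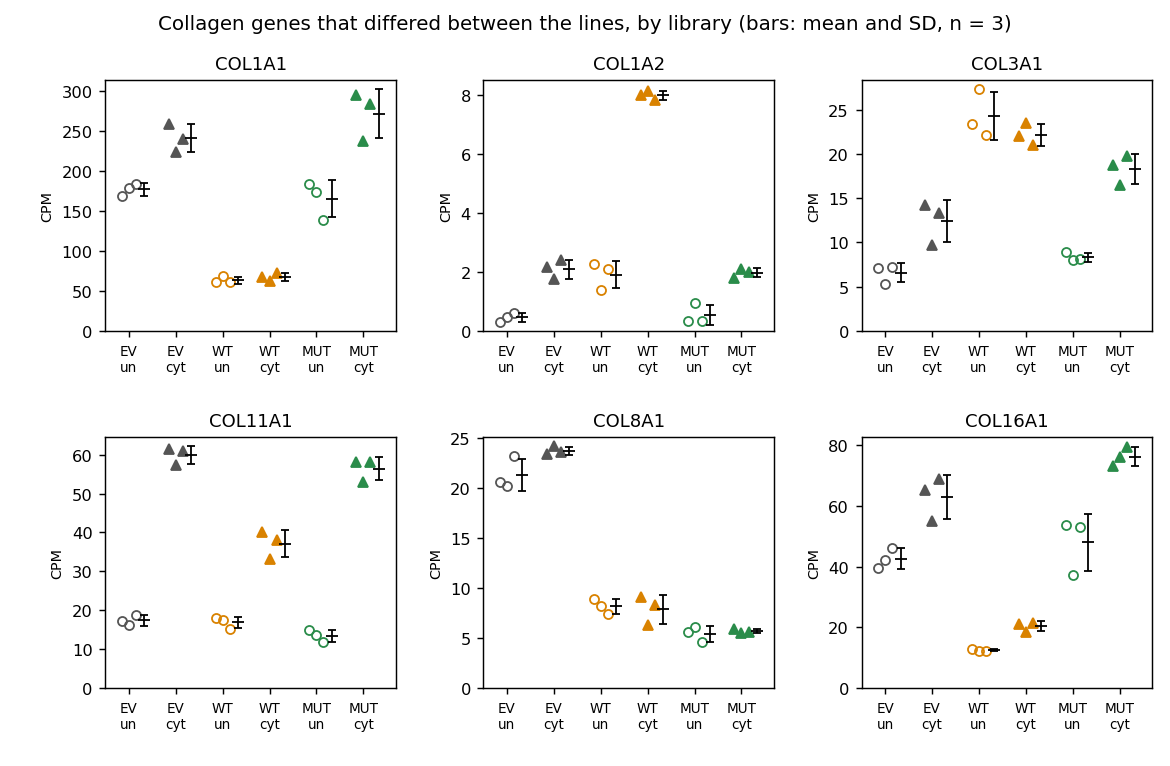
CPM of COL1A1, COL1A2, COL3A1, COL11A1, COL8A1 and COL16A1 in the 18 libraries, with the mean and SD of each group of 3 as black bars and each axis from 0 (un, untreated; cyt, cytarabine). COL1A1 and COL16A1 are low and COL1A2 and COL3A1 high in the WT line, COL8A1 is low in both DNMT3A lines, and treated COL11A1 is lower in WT cells (33.3 to 40.2 CPM) than in the others.

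With cytarabine, the lines again differed in COL1A1, COL16A1, COL8A1 and COL1A2. WT cells had 7 collagens higher and 8 lower than EV cells (7.41% and 9.12% of all genes), MUT cells had 5 higher and 2 lower than EV cells (6.85% and 7.13%), and 11 were higher and 5 lower in MUT than WT cells (10.4% and 9.48%). COL1A1 differed by -1.83 (SE 0.104, edgeR adjusted p = 6.67e-10) between treated WT and EV cells, COL16A1 by -1.62, COL8A1 by -1.59 and COL1A2 by 1.91. COL8A1 differed by -2.06 between treated MUT and EV cells. COL4A1 and COL4A2 were higher in treated MUT cells than in treated EV cells, by 0.63 (SE 0.0806) and 0.56 (SE 0.0748), and than in treated WT cells, by 0.36 and 0.51. All 3 treated MUT libraries lay above all other libraries for both genes. Leaving out 1 library at a time, 11 of 15, 5 of 7 and 12 of 16 calls held in every fit. Those lost were COL22A1, COL27A1, COL4A1 and COL6A1 for WT against EV (adjusted p up to 0.12, 0.168, 0.115 and 0.081), COL12A1 and COL4A4 for MUT against EV (up to 0.0698 and 0.125), and COL27A1, COL6A2, COL8A1 and COL9A2 for MUT against WT (up to 0.168, 0.141, 0.107 and 0.063).

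The response to cytarabine itself differed between lines in 3 fibrillar genes. These differences were tested as interaction terms in edgeR's fit of all 18 libraries, where 0.285% of all genes differed between WT and EV, 1.00% between MUT and WT and 0.214% between MUT and EV. COL3A1 responded less in WT than in EV cells, by a log2 difference of -1.06 (SE 0.194, adjusted p = 0.0232), and more in MUT than in WT cells, by 1.26 (SE 0.188, adjusted p = 0.00307). Its treated WT mean was 22.2 CPM and its untreated one 24.2 CPM, both above the treated means of 12.4 CPM in EV and 18.3 CPM in MUT cells. COL11A1 responded less in WT than in EV cells (-0.65, SE 0.132, adjusted p = 0.0425) and more in MUT than in WT cells (0.93, SE 0.134, adjusted p = 0.00307). COL1A1 responded more in MUT than in WT cells (0.62, SE 0.144, adjusted p = 0.0446). COL3A1 and COL11A1 between MUT and WT passed in all 25 refits, with adjusted p up to 0.0209 and 0.0191, but COL11A1 is under a minimum log2 difference of 1. The other 3 calls were less firm. Of 18 leave-one-out fits, COL3A1 between WT and EV passed in 9, COL11A1 in 4 and COL1A1 between MUT and WT in 5. COL11A1 was lost without any library other than treated EV replicate 2 and the 3 untreated MUT libraries, and COL1A1 without any other than treated EV replicates 1 and 2, untreated MUT replicates 1 and 2 and treated MUT replicate 2. COL3A1 was lost without untreated EV replicate 1 or 2, treated EV replicate 1 or 3, untreated WT replicate 1 or 2 or any treated WT library. The COL1A1 call was also lost when only the groups compared were fitted (adjusted p = 0.113). For MUT against EV no collagen passed in edgeR (4 had an unadjusted p under 0.05) or in DESeq2, and none passed in DESeq2, though COL4A1 did in edgeR without untreated MUT replicate 1 (0.39, adjusted p = 0.0369).

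Genes that process collagen were set beside the shares of all genes, of which 26.1%, 26.3% and 30.4% rose in EV, WT and MUT cells. They were taken from lists for folding, export, cleavage and crosslinking, receptors, degradation and matrix partners. Of 19 tested genes for folding and modification, 9 rose and 2 fell in EV cells, 11 and 3 in WT cells and 6 and 3 in MUT cells, where the share that rose is near that of all genes. P4HA3, a subunit of the enzyme that hydroxylates prolines, rose by 1.32, 0.95 and 1.29 on the log2 scale. SERPINH1, the collagen chaperone HSP47, did not pass the threshold (-0.20, -0.04 and -0.08), at 444 ± 7.59 CPM untreated and 387 ± 41.6 CPM treated in EV cells (SD, n = 3). It was lower in untreated WT and MUT cells than in EV cells, by log2 differences of -0.56 and -0.43 (edgeR adjusted p = 0.000214 and 0.00179). Of 6 export genes, 1 rose and 1 fell in EV cells, 1 and 2 in WT cells and 3 and 1 in MUT cells, too few genes to read against these shares.

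Beside the same 26.1%, 26.3% and 30.4% of all genes, of 13 genes for propeptide cleavage and crosslinking, 9 rose and 1 fell in EV cells, 8 and 0 in WT cells and 9 and 1 in MUT cells. LOX, which oxidises lysines for crosslinks, rose by 0.63, 0.54 and 0.77, and PCOLCE, an enhancer of propeptide removal, by 0.61, 0.67 and 0.91. ADAMTS2, which removes the amino propeptide, rose by 1.27, 0.80 and 1.27. Between treated WT and EV cells ADAMTS2 differed by -1.42 and PCOLCE by -0.85. Both had the sign of COL1A1 and the opposite sign of COL1A2 in that comparison. There 1 of the 13 genes was higher, 5 lower and 7 not called, beside 7.41% of all genes higher and 9.12% lower. Of 9 receptor genes, 7, 7 and 8 rose and none fell in EV, WT and MUT cells. DDR2, a kinase receptor for fibrillar collagen, had 28.3 ± 3.36 CPM in untreated EV cells, 6.47 ± 0.925 in WT and 4.08 ± 0.173 in MUT cells, and rose by 0.57, 1.52 and 2.11. Its response was larger in WT than EV cells by 0.95 and in MUT than EV cells by 1.55 (edgeR adjusted p = 0.0166 and 0.000553). Of 8 genes for degrading enzymes and inhibitors, 4, 5 and 5 rose and 1 fell in each line. The collagenase MMP13 rose in MUT cells by 2.06 and in WT cells by 0.69, and had a change of 0.37 in EV cells that did not pass. Of 4 partners of the type IV network in basement membranes, 4 rose in EV, 3 in WT and 4 in MUT cells, with medians of 0.42, 0.43 and 0.89. NID1, which links laminin to type IV collagen, rose by 0.41, 0.31 and 1.08. Of 3 tested fibril-bound proteoglycans, 1, 0 and 2 rose.

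Marker genes of endothelial cells were low. The 4 endothelial markers in the table summed to 1.15 to 4.46 CPM in untreated and 3.34 to 10.8 CPM in treated libraries, higher with cytarabine in each line, most of it from CDH5 and VWF, while KDR and PECAM1 had at most 9 counts in any library. The part of these markers in the rise of the scarce type IV chains was not tested.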

How the data were processed

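Libraries were made from total RNA with the NEBNext Ultra kit, per the labels' protocols. STAR 2.6.1d, CASAVA and hg38 are named in the submitters' processing notes, and the counting tool, annotation and strand setting are not given in the sources used here. The authors deposited estimated counts per gene, 71.0% of which were whole numbers. They also deposited a table of normalised signal for 19591 genes, 33 of the collagens among them, which equalled 1 plus the count times a factor per library and was used for those factors only.

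Counts were rounded and tested with edgeR 4.0.16 (filterByExpr, TMM scaling, quasi-likelihood fit of 18 libraries in 6 groups, limma 3.58.1, R 4.3.3). Each of 12 contrasts was adjusted by Benjamini-Hochberg over 18226 genes, with a threshold of 0.05, and the standard error is the log2 fold change divided by the root of its F. All adjusted p-values in the text, without a tool beside them, are edgeR's. CPM is TMM-scaled, and values per kb use the union of exons in GENCODE. On counts simulated for EV cells over 17580 genes, 98% of genes changed 2-fold and 68% of those changed 1.5-fold were called. The changed genes were drawn from those above 1 CPM on average, and all genes were given the same spread. These shares therefore do not hold for scarcer genes or for groups with a larger spread. DESeq2 1.42.0 and other alternatives are in the closing section. The canonical transcript length was added after seeing the data.

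Any collagen could be named. Values per library were given for the most abundant of each class, for the largest non-overlapping changes and for genes with an interaction. Genes of the companion lists were named where a change of at least 1 (log2) was called, at most 4 a list, besides SERPINH1, LOX, PCOLCE, DDR2, MMP13 and DNMT3A. NID1 was chosen after its values were seen. Members and lists were chosen with earlier results of these data known. No other columns were used. The list of blood cell markers is not reported here.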

Additional observations from a re-analysis of the deposited data

Results flagged for a closer look

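In 5 cases the response of a fibrillar gene to cytarabine differed between lines by an edgeR interaction test. COL3A1 responded less in WT than in EV cells (log2 difference -1.06, SE 0.194, adjusted p = 0.0232) and more in MUT than in WT cells (1.26, SE 0.188, adjusted p = 0.00307). COL3A1 rose in all 3 EV and all 3 MUT cultures above the untreated range, and in WT cells both groups overlapped. The difference between WT and EV was called in 9 of 18 fits that left out a library, and lost without untreated EV replicate 1 or 2, treated EV replicate 1 or 3, untreated WT replicate 1 or 2, or any treated WT library, with an adjusted p over all alternatives of 0.000324 to 0.104.

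COL11A1 responded less in WT than in EV cells (-0.65, SE 0.132, adjusted p = 0.0425) and more in MUT than in WT cells (0.93, SE 0.134, adjusted p = 0.00307). The former was kept in 4 of 18 leave-one-out fits, over a range of adjusted p of 0.0021 to 0.166. COL1A1 responded more in MUT than in WT cells (0.62, SE 0.144, adjusted p = 0.0446). It was kept in 5 of 18 such fits, over a range of 0.0056 to 0.145. For COL3A1 and COL11A1 between MUT and WT the ranges were 1.76e-06 to 0.0209 and 1.02e-06 to 0.0191.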

How the results depend on the processing

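Of 9426 alternative values of 384 gene effects, 9177 stayed on the same side of the threshold, 180 lost a call and 68 gained one. The sign was compared only for effects called in the main fit or in the alternative, and 1 changed sign. That was COL12A1 between untreated MUT and WT cells, at 0.21 without untreated MUT replicate 3 and -0.19 without replicate 1; the cause was not tested. A minimum log2 change of 1 left 10, 10 and 16 collagens for cytarabine in EV, WT and MUT cells. For untreated lines it left 8 for WT against EV, 2 for the MUT and EV pair and 6 for the MUT and WT pair, for treated lines 5, 1 and 3, and for interactions 1 for WT minus EV and 1 for MUT minus WT. Fitting only the groups compared of untreated cells left 2 collagens between the MUT and EV lines and 5 between the MUT and WT lines, with fewer samples in the fit. For the interaction of WT minus EV, the authors' factors left 1 and no low-count filter left 1.

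Leaving out 1 library gave 23 to 25, 19 to 23 and 25 to 28 calls for cytarabine in EV, WT and MUT cells. It gave 11 to 13, 6 to 11 and 14 to 19 for the untreated lines in the order above, 12 to 16, 5 to 10 and 13 to 17 for the treated lines, and 0 to 2, 0 to 1 and 2 to 4 for the interactions WT minus EV, MUT minus EV and MUT minus WT. No pairing of the libraries by replicate number was seen, though a weak one could be missed. Same-numbered deviations correlated between -0.176 and 0.352 and differently numbered ones between -0.368 and 0.297. Of the 18 libraries, 8 correlated best with their own number. A fit with the replicate block gave 25, 21 and 27 calls for cytarabine, 13, 9 and 19 for untreated lines, 14, 7 and 16 for treated lines and 2, 0 and 2 for the interactions, against 24, 21, 27, 13, 8, 17, 15, 7, 16, 2, 0 and 3 without it. With the block, COL1A1 in the interaction of MUT minus WT had an adjusted p of 0.054.

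The fibrillar, basement membrane and other shares of the summed level, 22.1%, 27.8% and 50.1%, became 18.2%, 42% and 39.9% without length scaling and 17%, 40.7% and 42.3% with canonical transcripts. Counting COL15A1 and COL18A1 with the basement membrane class left 49.3% for the others. Ratios with canonical transcripts were 2.74 for COL4A2 to COL4A1, 4.97 for COL5A1 to COL5A2 and 0.534 for COL6A1 to COL6A2, against 2.06, 4.03 and 0.628. That of COL1A1 to COL1A2 was 156 against 218, a shift within its spread between replicates. Depth limits the 11 untested genes and COL4A3, COL4A6, COL9A3, COL8A2 and COL26A1.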
